A study of Mus musculus with 6 samples.

Results

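Liver iron handling was described here through 10 genes, 5 of them in the signalling arm that sets hepcidin (Bmp6, Id1, Hamp, Hamp2 and Tfr2) and 5 that take up, carry, store or export iron (Tfrc, Trf, Slc40a1, Fth1 and Ftl1). They were taken by symbol, through their Ensembl gene IDs, from a table of 53715 genes, and all 10 were found and passed the filter on low counts, which left 13022 genes to test. The study measured polyA RNA in livers of male ICR mice, an outbred strain, at 8 weeks of age. First-generation (F1) offspring gave 3 libraries in each group. The labels give the stress of the FR F1 group as paternal famine and do not spell out FR, while the title of the series speaks of a paternal overdiet, so both group names, control F1 and FR F1, are kept as labelled. The comparison asks how the offspring's livers differed by the father's exposure. Nothing in the labels says whether the libraries of a group came from separate animals or litters, so every p-value measures only the spread between these libraries.

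Hepcidin, the peptide made from Hamp, is released by hepatocytes, binds the iron exporter ferroportin (Slc40a1) and causes its loss from the cell surface, which lowers the entry of iron into plasma. Its transcription in hepatocytes is driven by bone morphogenetic proteins (BMPs), chiefly BMP6 and BMP2 from liver sinusoidal endothelial cells, acting through SMAD proteins, with transferrin receptor 2 and haemojuvelin as parts of the iron-sensing apparatus and interleukin 6 acting through STAT3. A separate control works on messenger RNA: iron regulatory proteins bind hairpins called iron-responsive elements (IREs) when iron is scarce, which stabilises the transferrin receptor message through its 3′ UTR and blocks translation of the ferritin and ferroportin messages through their 5′ UTRs.

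The IREs are shown first, because they mark which members carry this second control. A search of GENCODE M21 transcripts (GRCm38) for a hairpin of the IRE shape found 4 elements in Tfrc and 1 each in Slc40a1, Fth1 and Ftl1, and none in the other 6 members. The 7 elements are printed 5′ to 3′ as DNA letters in the sense of the transcript, with the 6-base loop in capitals.
Tfrc 3′ UTR, chr16:32631220-32631246, plus strand: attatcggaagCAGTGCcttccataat
Tfrc 3′ UTR, chr16:32631599-32631625, plus strand: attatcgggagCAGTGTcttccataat
Tfrc 3′ UTR, chr16:32631664-32631690, plus strand: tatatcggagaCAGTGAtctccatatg
Tfrc 3′ UTR, chr16:32631711-32631737, plus strand: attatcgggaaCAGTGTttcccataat
Slc40a1 5′ UTR, chr1:45925466-45925492, minus strand: aacttcagctaCAGTGTtagctaagtt
Fth1 5′ UTR, chr19:9982733-9982759, plus strand: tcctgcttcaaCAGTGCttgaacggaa
Ftl1 5′ UTR, chr7:45459780-45459806, minus strand: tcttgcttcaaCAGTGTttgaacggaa
The same search found at least 1 match in 205 of 21901 protein-coding genes (0.936%), and Tfrc was the 1 gene with 4 or more. A match is a description of the letters and does not show that a protein binds there.

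The second set shows why Hamp and Hamp2 are treated apart. Both lie on the minus strand of chromosome 7, and mice carry this second hepcidin gene beside the one that acts on ferroportin. The stretches below are 85 bases of each RefSeq promoter (GRCm38.p6). Capitals mark the STAT motif and the 6 bases of the BMP-responsive core in Hamp, with the bases aligned to that core in Hamp2.
Hamp, chr7:30944094-30944178, minus strand: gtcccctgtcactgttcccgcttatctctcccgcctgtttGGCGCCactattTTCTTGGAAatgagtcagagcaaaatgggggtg
Hamp2, chr7:30924243-30924327, minus strand: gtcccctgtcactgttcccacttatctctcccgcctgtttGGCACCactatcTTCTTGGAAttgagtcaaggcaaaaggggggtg
The stretches were identical at 78 of 85 bases. Counted from 1 at the 5′ end of the stretch, with the Hamp base first, 1 of the 7 substitutions (G44A) fell in the 6-base core. The core GGCGCC, searched on both strands, was present in 11.87% of 32851 RefSeq promoters and the STAT motif TTCNNNGAA in 8.3%. The motifs do not overlap. The Hamp2 stretch holds the STAT motif but not the core, and the absence of the core's letters says nothing of which factors act there.

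No member passed edgeR's quasi-likelihood test at a Benjamini-Hochberg adjusted p of 0.05, where 109 of all 13022 tested genes (0.837%) did. At an unadjusted p of 0.05, 1 of the 10 members (Tfrc) passed, beside 17.9% of all tested genes. DESeq2 called 0 members and 3.51% of all genes, and limma-voom called 0 members and 0.791% of all genes. In 2 members, Tfrc and Fth1, every FR F1 library was above every control F1 library, a pattern found in 12.5% of all tested genes. In 1 member, Tfr2, every FR F1 library was lower, a pattern found in 13.2% of all tested genes. The median log2 difference of the 10 members, FR F1 minus control F1, was 0.18, beside 0.00 over all tested genes.

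**Figure D1:**
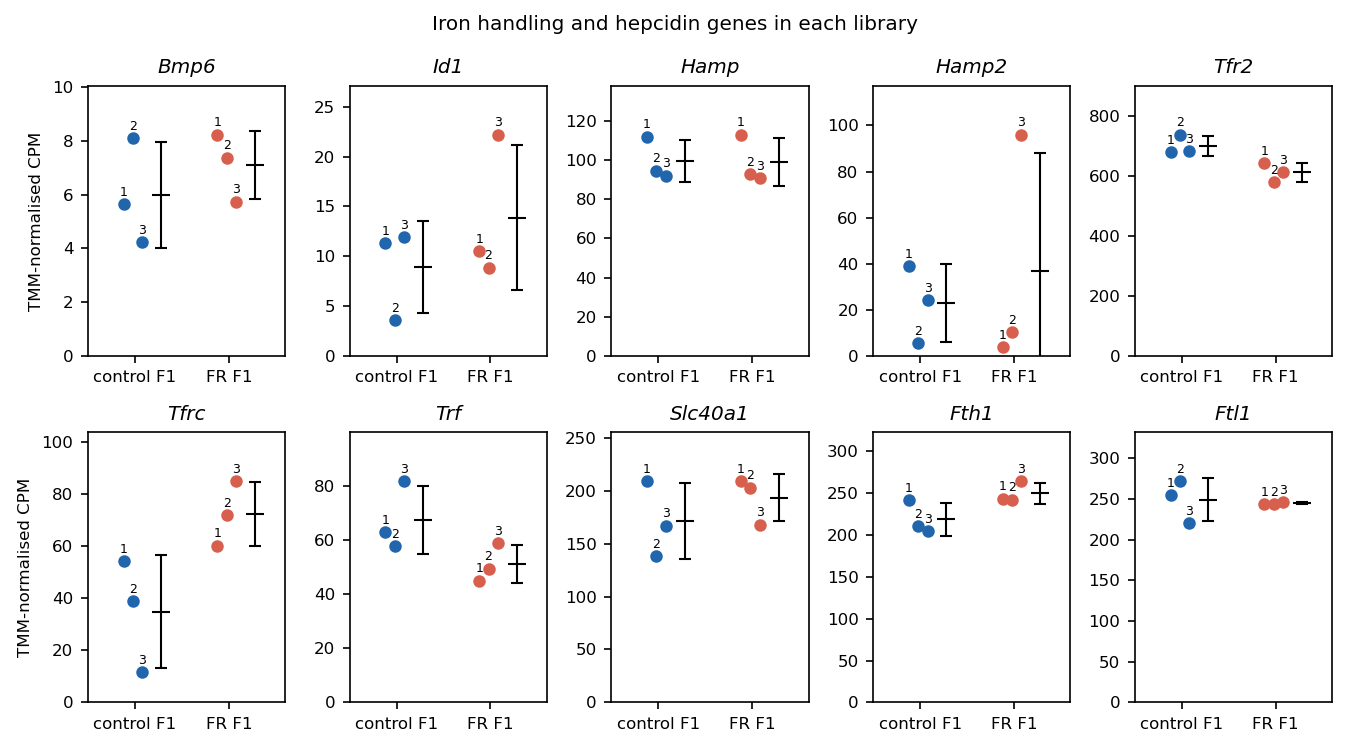
TMM-normalised CPM of the 10 genes in each of the 3 control F1 (blue) and 3 FR F1 (red) libraries, with replicate numbers beside the points and the group mean ± SD as black bars (the lower bar of FR F1 Hamp2 is clipped at 0). Hamp lay between 90.7 and 113 CPM in all 6 libraries, while Hamp2 ranged from 3.74 to 96.0 CPM.

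CPM here are counts scaled to each library's effective size. The libraries were shallow, with 2279755 to 2730160 counts each, and they limited these values in 2 ways. First, counts of abundant genes stayed low for their length. Alb, which encodes the main plasma protein, had 1865 to 2315 counts per library, and 319 genes, Hamp, Ftl1, Tfr2 and Hamp2 among them, reached 0.5 counts per base of transcript in at least 1 library. Differences between libraries in such genes may be understated, and whether that happened in these members was not tested. Second, control replicate 3 was low in genes of low GC content and high in those of high GC content. Of its counts 0.101% were mitochondrial, against 0.282% to 0.352% in the other 5. In the quintile of tested genes with the lowest transcript GC (28.1% to 43.7%), its median log2 deviation from the mean of the 6 libraries was -0.61, against -0.07 to 0.31 in the others. In the quintile with the highest GC (55.2% to 82.9%) it was 0.22, against -0.16 to 0.07 in the others. The median log2 difference, FR F1 minus control F1, was 0.34 over all tested genes of the lowest quintile and -0.12 over those of the highest. Of the members, Tfrc (39.8% GC) and Slc40a1 (42.0% GC) fell in the lowest quintile. Bmp6 (57.8% GC), Tfr2 (57.8% GC) and Ftl1 (58.1% GC) fell in the highest.

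**Figure D2:**
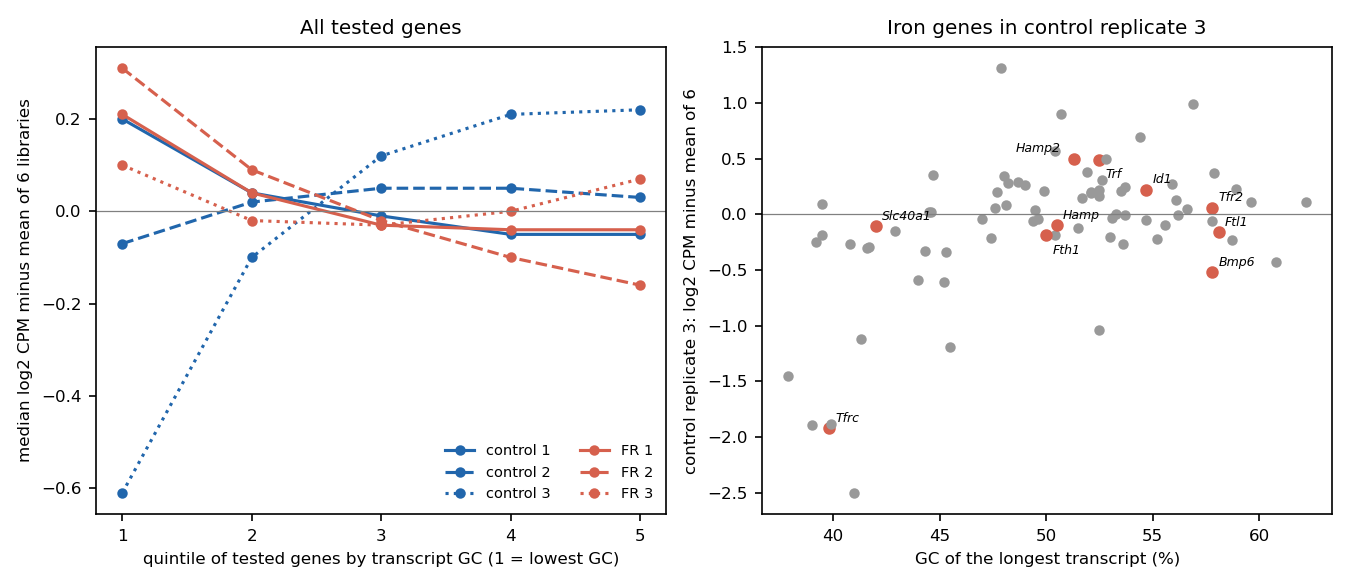
Left, median deviation of log2 CPM from the mean of the 6 libraries (y axis) in quintiles of tested genes ordered by transcript GC (x axis), 1 line per library. Right, each tested iron gene's deviation in control replicate 3 (y axis) against its transcript GC in percent (x axis), with the 10 members in red, and Tfrc at -1.92 as the lowest member.

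Bmp6 (ENSMUSG00000039004.6, chr13:38345107-38500302, plus strand) encodes the BMP that links liver iron to hepcidin. Its counts were 13, 18 and 11 among the controls and 22, 20 and 14 in FR F1. These were 5.64, 8.11 and 4.22 CPM against 8.23, 7.37 and 5.74 CPM, and the groups overlapped. The control F1 mean was 5.99 ± 1.97 CPM and the FR F1 mean was 7.11 ± 1.26 CPM (SD, n = 3 each). The log2 difference was 0.26 ± 0.36 (SE), with a 95% interval from -0.57 to 1.09 and an edgeR adjusted p of 0.717. Without control replicate 3 the difference was 0.05, and without control replicate 2 it was 0.53. The interval runs from a fold of 0.673 to 2.13, so at this depth a doubling could not be told from no difference. On the opposite strand 224 of its 3900 exonic bases are shared with Txndc5, which had 4112 counts in all against 98 for Bmp6. The sources used here do not say whether counting used strand, so reads of the 2 genes may be mixed.

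Id1 (ENSMUSG00000042745.9, chr2:152736251-152737410, plus strand) encodes an inhibitor of helix-loop-helix factors and is a direct BMP-SMAD target. Its counts were 26, 8 and 31 in control F1 and 28, 24 and 54 in FR F1. In CPM these were 11.3, 3.61 and 11.9 against 10.5, 8.84 and 22.2. Control replicate 2 was the lowest library and FR replicate 3 the highest, 6.15-fold apart, and the other 4 lay close together across the groups. The log2 difference was 0.61 ± 0.51 (SE, n = 3 and 3), with a 95% interval from -0.57 to 1.79 and an edgeR adjusted p of 0.542. Without FR replicate 3 it was 0.12, and without control replicate 2 it was 0.24.

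Hamp (ENSMUSG00000050440.8, chr7:30942368-30944032, minus strand) encodes hepcidin itself. It had 259, 210 and 240 counts in control F1 and 303, 252 and 221 in FR F1. As CPM the control F1 libraries stood at 112, 94.7 and 92.1 and the FR F1 libraries at 113, 92.9 and 90.7. Each group thus held 1 library near the top of the range and 2 near the bottom. The control F1 mean was 99.7 ± 11.0 CPM and the FR F1 mean was 98.9 ± 12.5 CPM (SD, n = 3 each). The log2 difference was -0.01 ± 0.16 (SE), with a 95% interval from -0.37 to 0.35, or a fold of 0.774 to 1.27, and an edgeR adjusted p of 0.977. Its counts were 0.512 to 0.739 per base of transcript, and when counts were expanded toward an assumed ceiling the difference was 0.06.

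Hamp2 (ENSMUSG00000056978.8, chr7:30922372-30924681, minus strand) encodes a second hepcidin, for which an action on iron like that of the first has not been seen in mice. It behaved unlike Hamp in these libraries. It had 90, 12 and 63 counts in control F1 and 10, 28 and 234 in FR F1. In CPM the values were 39.0, 5.41 and 24.2 against 3.74, 10.3 and 96.0, so both the highest and the lowest library were FR F1. They were 25.7-fold apart, whereas Hamp kept to 90.7 to 113 CPM. Within FR F1 the coefficient of variation was 140%, against 10.5% from counting alone. The log2 difference of 0.67 ± 1.05 (SE, n = 3 and 3) had a 95% interval from -1.76 to 3.09 and an edgeR adjusted p of 0.754. Without FR replicate 3 it was -1.69, and with limma-voom -0.24, so neither its sign nor its size was settled.

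Set against Hamp in the same library, Hamp2 counts were 0.347, 0.0571 and 0.263 of those of Hamp in control F1 and 0.033, 0.111 and 1.06 in FR F1. This ratio spanned 32.1-fold, with means of 0.222 ± 0.149 and 0.401 ± 0.571 (SD, n = 3 each). The 2-sided exact permutation p was 1.0, but 3 against 3 can reach no less than 0.1, so the test could not have called a difference. The transcripts share sequence: 60 of 361 50-base words of Hamp (16.6%) also occur in Hamp2, with a longest shared run of 87 bases. On the opposite strand Hamp2 shares 89 exonic bases with Gm44662, which had 767 counts in all. Gm44662 counts were 139, 91 and 133 in control F1 and 87, 94 and 223 in FR F1, so FR replicate 3 was highest there too. How far reads of these genes were exchanged was not tested.

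Tfr2 (ENSMUSG00000029716.13, chr5:137569840-137587481, plus strand) encodes transferrin receptor 2, an iron sensor of hepatocytes. It had the most counts of the 10 genes, 1566, 1638 and 1784 in control F1 and 1720, 1573 and 1493 in FR F1. In CPM these were 679, 738 and 684 against 643, 580 and 613, so every FR F1 library was lower after scaling. The control F1 mean was 701 ± 32.8 CPM and the FR F1 mean was 612 ± 31.7 CPM (SD, n = 3 each). The log2 difference was -0.20 ± 0.09 (SE), with a 95% interval from -0.39 to 0.00 and an edgeR adjusted p of 0.286. With offsets for transcript GC the difference was -0.11 (edgeR adjusted p = 0.64). The 2-sided exact permutation p was 0.1, the smallest that 3 against 3 allows. At 0.486 to 0.581 counts per base it was another of the genes whose differences may be understated.

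Tfrc (ENSMUSG00000022797.15, chr16:32608920-32632794, plus strand), the bearer of the 4 elements printed above, encodes transferrin receptor 1, which brings transferrin-bound iron into cells. Its counts were 125, 86 and 30 in control F1 and 161, 195 and 207 in FR F1. In CPM they were 54.2, 38.8 and 11.5 against 60.2, 71.9 and 84.9. Every FR F1 library was above every control F1 library, with 54.2 and 60.2 CPM as the nearest values and control replicate 3 the lowest by far. The control F1 mean was 34.8 ± 21.6 CPM and the FR F1 mean was 72.3 ± 12.4 CPM (SD, n = 3 each). The log2 difference of 1.06 ± 0.45 (SE) had a 95% interval from 0.02 to 2.10 and an edgeR adjusted p of 0.270. The 2-sided exact permutation p was 0.1.

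The size of this difference depended on control replicate 3. Without it, the log2 difference was 0.63 (edgeR adjusted p = 0.219, where 1.19% of genes were called). Without control replicate 1 it was 1.54 (edgeR adjusted p = 0.0807, where 4.83% of genes were called). With offsets for transcript GC it was 0.77 (edgeR adjusted p = 0.205, where 2.13% of genes were called). Without a filter on low counts it was 1.04 and passed (edgeR adjusted p = 0.000487), in a fit that called 4.04% of 30930 genes. Control replicate 3 was the lowest of the 6 libraries in 1787 of the 2604 tested genes of the lowest GC quintile. The median log2 difference over all genes of that quintile was 0.34. The part of the GC content in the Tfrc difference was not tested beyond these values.

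Tfrc is also abundant in immature red cells, so erythroid markers are given beside it. Of 9 listed, 8 were in the table and 4 passed the filter. The summed level was 182 to 408 CPM in the controls, against 409 to 470 CPM in FR F1. Most of that was Alas2, the erythroid enzyme of haem synthesis, with 712, 187 and 258 counts in control F1 and 825, 857 and 868 in FR F1 (164 ± 126 against 327 ± 25.7 CPM, SD, n = 3 each). Defining red-cell membrane markers were near 0, with at most 6 counts of Slc4a1 and 2 of Epb42 in any library. Hba-a1 had 63 to 75 counts in control F1 and 120 to 129 in FR F1, and Hbb-bs had 99 to 115 and 118 to 136. Hbb-bt, also tested and named after its values were seen, went the other way, with 18, 38 and 40 counts in control F1 and 8, 27 and 4 in FR F1 (log2 difference -1.44, edgeR adjusted p = 0.267). In bulk tissue, a different number of cells of a type and a different amount of RNA per cell cannot be told apart, and the part of red-cell RNA in the Tfrc values was not tested.

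Trf (ENSMUSG00000032554.15, chr9:103204001-103230444, minus strand) encodes transferrin, the plasma iron carrier that hepatocytes secrete. Its counts were 145, 128 and 213 in control F1 and 120, 134 and 143 in FR F1. In CPM these were 62.9, 57.7 and 81.7 against 44.9, 49.4 and 58.7. The groups overlapped by 1 pair of libraries, FR replicate 3 above control replicate 2. The log2 difference was -0.41 ± 0.19 (SE, n = 3 and 3), with a 95% interval from -0.85 to 0.04 and an edgeR adjusted p of 0.306. Without control replicate 3, the highest library, the difference was -0.25, and with offsets for transcript GC it was -0.3.

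The level of Trf itself is uncertain. Of its 3320 exonic bases, 2108 (63.5%) are shared on the same strand with the gene model Gm20425, which had 0 counts in every library. The sources used here do not say how the authors' counting treated reads on shared bases, so the 883 Trf counts may be those of the unshared part. Per kilobase of transcript Trf stood at 26.2 CPM among the controls and 19.8 CPM in FR F1, below its hepatocyte sensor Tfr2 at 228 and 199 CPM per kilobase.

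Slc40a1 (ENSMUSG00000025993.10, chr1:45908068-45926523, minus strand) encodes ferroportin, the exporter that hepcidin acts on. It had 481, 307 and 436 counts in control F1 and 559, 550 and 409 in FR F1. In CPM these were 209, 138 and 167 against 209, 203 and 168. Control replicate 1 lay level with the top of FR F1, and the groups overlapped. The log2 difference was 0.17 ± 0.17 (SE, n = 3 and 3), with a 95% interval from -0.22 to 0.57 and an edgeR adjusted p of 0.607. With offsets for transcript GC the difference turned to -0.09. Ferroportin is also abundant in Kupffer cells, the liver macrophages, whose 12 markers summed to 604, 355 and 704 CPM in the controls, against 904, 462 and 884 CPM in FR F1. All 12 had higher values in FR F1 (median log2 difference 0.44), and 1 was higher in every FR F1 library (12.5% of all tested genes). With edgeR 0 of the 12 passed (0.837% of all tested genes), and 2 had an unadjusted p under 0.05 (17.9% of all tested genes). Clec4f, Cd5l and Csf1r were the most counted Kupffer cell markers. The part of Kupffer cell RNA in the Slc40a1 values was not tested.

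Fth1 (ENSMUSG00000024661.6, chr19:9980598-9985098, plus strand) and Ftl1 (ENSMUSG00000050708.16, chr7:45457944-45459884, minus strand) encode the heavy and light chains of ferritin, the iron store. Fth1 had 556, 467 and 531 counts in control F1 and 649, 656 and 644 in FR F1. In CPM these were 241, 210 and 204 against 243, 242 and 264, so each FR F1 library was higher, though control replicate 1 lay within 2 CPM of the lowest. The Fth1 log2 difference was 0.19 ± 0.11 (SE, n = 3 and 3), with a 95% interval from -0.07 to 0.45 and an edgeR adjusted p of 0.398. Ftl1 had 589, 604 and 574 counts in control F1 and 653, 662 and 599 in FR F1. In CPM these were 255, 272 and 220 against 244, 244 and 246, with all 3 FR F1 libraries inside the control range. The Ftl1 log2 difference was -0.03 ± 0.11 (SE, n = 3 and 3), with a 95% interval from -0.29 to 0.24 and an edgeR adjusted p of 0.916.

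The ratio of heavy to light chain counts was 0.944, 0.773 and 0.925 in control F1 and 0.994, 0.991 and 1.08 in FR F1. Every FR F1 library was higher (2-sided exact permutation p = 0.1, the smallest possible). Ferritin has many processed copies in the genome. The Ftl1-ps1 copy holds 675 of 919 50-base words of Ftl1 (73.4%) and had 62, 54 and 76 counts in control F1 and 35, 45 and 46 in FR F1. None of the Fth1 words was found in the 2 Fth1 pseudogenes compared, and those had 0 to 2 counts per library. Ftl1 also shares 355 of 1340 exonic bases on the opposite strand with Gm10252, which had 1916 counts in all, so the Ftl1 values may hold reads of both.

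**Figure D3:**
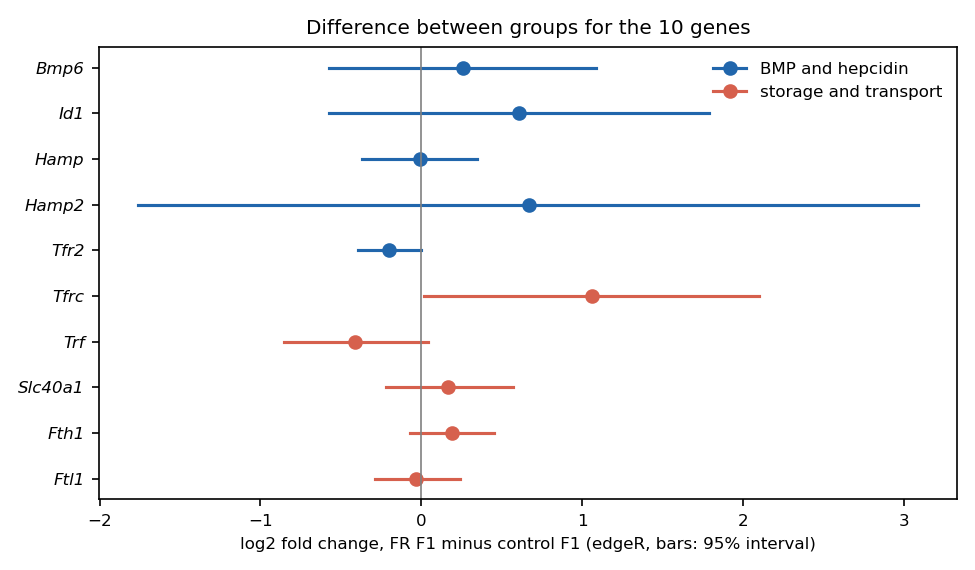
Log2 fold change of FR F1 against control F1 with edgeR's 95% interval for the 10 genes (x axis), with the BMP and hepcidin arm in blue and the storage and transport arm in red. The interval of Tfrc (0.02 to 2.10) was the only one of the 10 that left out 0, and that of Hamp2 (-1.76 to 3.09) was the widest.

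Across all 6 libraries, levels per kilobase of transcript ran from Ftl1 at 255 ± 17.6 CPM per kilobase, through Hamp at 242 ± 25.7 and Tfr2 at 214 ± 18.4, to Bmp6 at 1.82 ± 0.446 (SD, n = 6). The ranges of Ftl1 and Hamp overlapped, as did those of Hamp and Tfr2. Fth1 followed at 113 ± 11.0 CPM per kilobase, below every library of Tfr2. Hamp2 at 68.1 ± 80.3 ranged from 8.56 to 220 CPM per kilobase. It overlapped Tfr2, Fth1, Slc40a1, Trf, Tfrc and Id1, so its place in this order was not settled. Slc40a1 stood at 46.4 ± 7.37 CPM per kilobase, and Trf at 23.0 ± 4.99 was below every library of Slc40a1. The lowest library of Trf, at 17.5, was only just above the highest of Tfrc, at 17.4. Tfrc at 11.0 ± 5.29 and Id1 at 9.80 ± 5.23 CPM per kilobase overlapped each other. Since Ftl1, Hamp and Tfr2 were among the genes near 0.5 counts per base, the upper end of this order may be compressed.

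The arms were set against each other by averaging, in each library, the log2 CPM of the 5 genes of an arm after centring each gene on its mean over the 6 libraries. The BMP and hepcidin arm stood at 0.28, -0.48 and 0.03 in control F1 and -0.28, -0.18 and 0.63 in FR F1. The storage and transport arm stood at 0.13, -0.13 and -0.38 in control F1 and 0.06, 0.12 and 0.19 in FR F1. Their difference was 0.07 ± 0.39 (SD, n = 3) in control F1 and -0.07 ± 0.44 (SD, n = 3) in FR F1, a shift of -0.14 that was smaller than the spread within either group. Without Hamp2 the shift was -0.08. Without the members near 0.5 counts per base, which left only Bmp6 and Id1 in the BMP and hepcidin arm, it was 0.12. The storage and transport arm alone shifted by 0.25. Within that arm Tfrc varied most, from -1.92 in control replicate 3 to 0.88 in FR replicate 3. The shift without Tfrc was not computed, so how far that 1 gene sets the sign of the difference was not tested. The balance of the receptors was also set out as the ratio of Tfrc to Tfr2 counts, 0.0798, 0.0525 and 0.0168 in control F1 and 0.0936, 0.124 and 0.139 in FR F1. It was higher in every FR F1 library, as it had to be with Tfrc higher and Tfr2 lower in each of them. Its 2-sided exact permutation p of 0.1 therefore adds nothing to the values of the single genes.

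**Figure D4:**
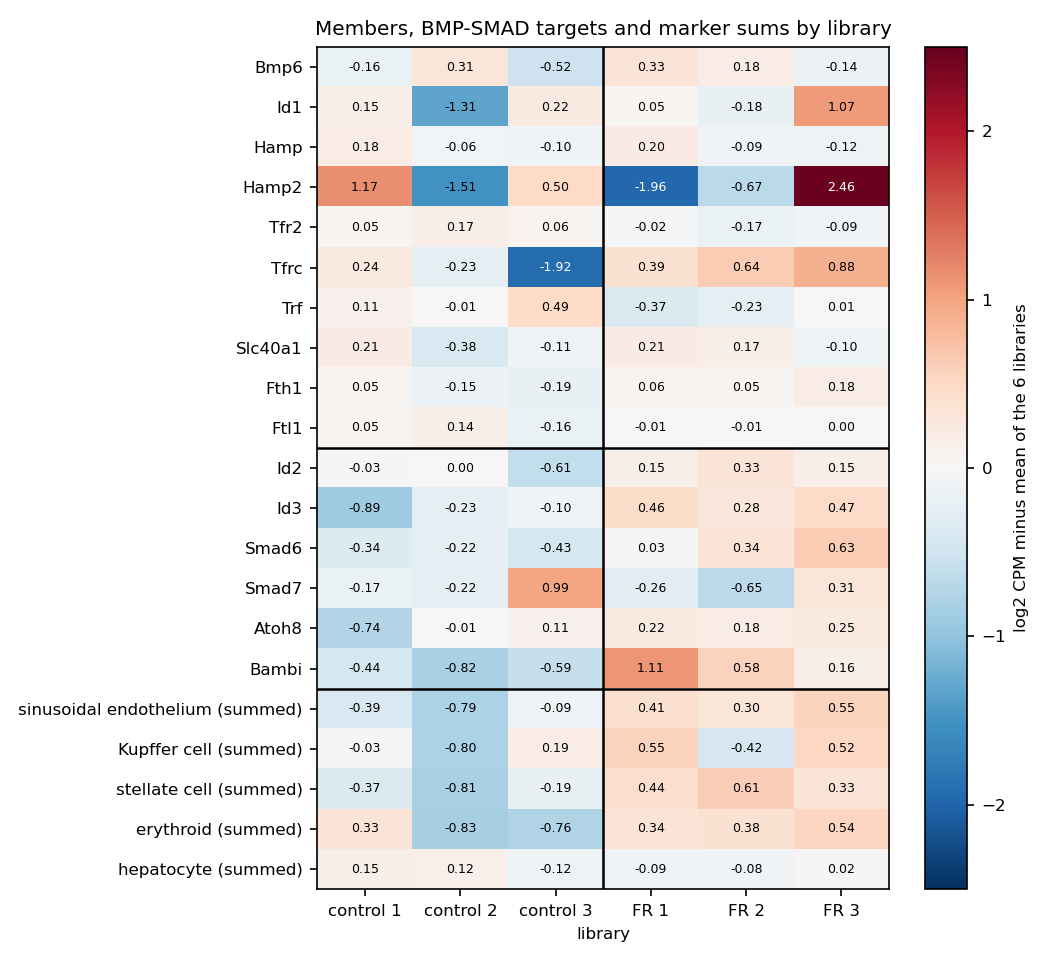
Log2 CPM minus the mean of the 6 libraries (colour and printed value) for the 10 genes, 6 other BMP-SMAD targets and the summed markers of 5 cell types (rows) in each library (columns). Hamp stayed within -0.12 and 0.20, Hamp2 ranged from -1.96 to 2.46, and the endothelial and stellate sums were above their mean in all 3 FR F1 libraries and below it in all 3 control F1 libraries.

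The wider pathway was read from 9 lists holding 85 genes, 79 of them tested. All members but Hamp2 are counted among them, and 76 of the 85 are no members. None passed edgeR's test, 20 (25.3%) had an unadjusted p under 0.05, beside 17.9% of all tested genes, 11 with higher and 9 with lower values in FR F1. DESeq2 called 3 of the 79 (Hfe2, Id3 and Steap4), a share close to the 3.51% it called of all genes, and limma-voom called 0 (0.791% of all genes). FR F1 was entirely above control F1 in 18 (22.8%) and entirely below in 12 (15.2%), beside 12.5% and 13.2% of all tested genes. With offsets for transcript GC, Hfe2 and Id3 passed edgeR's test (2 of 79, beside 2.13% of all genes). Without a filter on low counts 14 of all 85 did, beside 4.04% of all genes.

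Among the 15 BMP ligands, receptors and SMADs, the median log2 difference was 0.26. Bmp2, the other endothelial BMP that drives hepcidin, had 49, 19 and 22 counts in control F1 and 72, 96 and 57 in FR F1. Its log2 difference was 1.17 ± 0.39 (SE, edgeR adjusted p = 0.193). Without control replicate 1, the control nearest to FR F1, it was 1.74 and passed (edgeR adjusted p = 0.0259, where 4.83% of genes were called). Gdf2, which encodes BMP9, a ligand made in the liver, had 31, 20 and 82 counts in control F1 and 106, 105 and 102 in FR F1. Its log2 difference was 1.14 ± 0.40 (SE, edgeR adjusted p = 0.209). Without control replicate 3, the control nearest to FR F1, it was 1.82 and passed (edgeR adjusted p = 0.0224, where 1.19% of genes were called). Neither gene passed when any other single library was left out. Bmp2 and Gdf2 were the 2 genes of the 15 that were higher in every FR F1 library (12.5% of all tested genes), whereas Bmp6 overlapped between the groups. In 3 of the 15 every FR F1 library was lower (13.2% of all tested genes). These were Smad9, a SMAD of the BMP branch, at -1.02 and the receptors Acvr2b at -0.86 and Acvr1 at -0.46, named after their values were seen, and none passed (edgeR adjusted p = 0.214, 0.256 and 0.228).

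Among the 8 tested sensors and modulators of hepcidin, the median was 0.10. Hfe2, the gene of haemojuvelin, the BMP co-receptor of hepatocytes, had 331, 316 and 378 counts in control F1 and 538, 502 and 510 in FR F1. Its log2 difference was 0.47 ± 0.11 (SE, edgeR adjusted p = 0.106). Furin, a protease that cuts haemojuvelin and the hepcidin precursor, had 1278, 1003 and 1336 counts in control F1 and 840, 888 and 1087 in FR F1. Its log2 difference was -0.48 ± 0.15 (SE, edgeR adjusted p = 0.181). Hfe2 and Furin thus had opposite signs, and Hamp lay at -0.01. Any bearing of these genes on each other or on Hamp was not tested.

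Of the 8 tested BMP-SMAD target genes, which include Hamp and Id1, 5 were higher in every FR F1 library (12.5% of all tested genes) and 0 lower in every one (13.2% of all tested genes), and the median was 0.51. Bambi, a decoy receptor of the family, had 10, 7 and 10 counts in control F1 and 38, 26 and 17 in FR F1, a log2 difference of 1.43 ± 0.38 (SE, edgeR adjusted p = 0.134). Id3, a relative of Id1, had 85, 130 and 168 counts in control F1 and 255, 227 and 234 in FR F1, a log2 difference of 0.78 ± 0.22 (SE, edgeR adjusted p = 0.142). The list is not a readout of hepatocytes alone, since such targets are also expressed in endothelial and stellate cells.

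Markers of those cells were higher in the same libraries. All 17 sinusoidal endothelial markers had higher values in FR F1, with a median log2 difference of 1.01, 14 of them were higher in every FR F1 library (12.5% of all tested genes). With edgeR 0 of them passed (0.837% of all tested genes), and 13 had an unadjusted p under 0.05 (17.9% of all tested genes). Their summed level was 626 to 1020 CPM in the controls, against 1340 to 1590 CPM in FR F1. Stab2, Eng and Stab1 were the most counted. Stab2 had 335, 345 and 427 counts in control F1 and 393, 413 and 443 in FR F1, a log2 difference of only 0.05 (edgeR adjusted p = 0.858). Stab1 stood at 0.37 and Eng at 0.68. Stab2 and Stab1 overlapped between the groups, while Eng was higher in every FR F1 library. All 13 stellate markers also had higher values in FR F1 (median 0.91). They summed to 385 to 593 CPM in the controls, against 850 to 1030 CPM in FR F1. Of the 13, 7 were higher in every FR F1 library (12.5% of all tested genes), and the others overlapped between the groups. With edgeR 1 of the 13, Pdgfra, passed (0.837% of all tested genes). An unadjusted p under 0.05 was found in 9 (17.9% of all tested genes). Pdgfra rose from 6.71 ± 0.932 to 19.4 ± 0.656 CPM (SD, n = 3 each). Ecm1, Dcn and Rgs5 were the most counted stellate markers. Hepatocyte markers had a median of -0.09 and summed to 5480 to 6630 CPM in the controls, against 5590 to 6070 CPM in FR F1, led by Apob, Alb and Cps1. Of these 10 markers, 3 were lower in every FR F1 library (13.2% of all tested genes) and 0 were higher in every one (12.5%). With edgeR 0 passed (0.837% of all tested genes), and 3, all lower, had an unadjusted p under 0.05 (17.9% of all tested genes). The part of the endothelial and stellate signal in the values of Bmp2, Gdf2, Bambi and Id3 was not tested.

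In the interleukin 6 and STAT3 arm (7 genes, median -0.20), Il6st, the shared receptor subunit, had the smallest p, with a log2 difference of 0.37 ± 0.11 (SE, edgeR adjusted p = 0.153). Il6ra, the ligand-binding subunit, stood at -0.55 ± 0.25 (SE, edgeR adjusted p = 0.297). Among 13 tested genes of iron and haem uptake, which include Tfrc and Trf, the median was -0.28, with 3 higher in every FR F1 library (12.5% of all tested genes) and 4 lower (13.2%). Steap4 and Steap3, which encode metalloreductases, were among the lower ones. Steap4 had 415, 437 and 525 counts in control F1 and 312, 405 and 303 in FR F1, a log2 difference of -0.57 ± 0.14 (SE, edgeR adjusted p = 0.106). Steap3, the endosomal reductase that works beside transferrin receptor 1, had 210, 197 and 278 counts in control F1 and 190, 160 and 122 in FR F1, a log2 difference of -0.67 ± 0.18 (SE, edgeR adjusted p = 0.129). The reductase and the receptor of that route thus had opposite signs.

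Storage, export and ferritin turnover (7 tested genes) spanned only -0.03 to 0.19, with Fth1 and Slc40a1 at the smallest p-values. Of the 3 genes around the iron regulatory proteins, Fbxl5, which degrades the second of those proteins, stood at 0.44 and Aco1, which encodes the first, at -0.17, and neither passed. Of 8 haem genes, Flvcr2, a transporter, stood at -1.08 ± 0.35 (SE, edgeR adjusted p = 0.182) and Abcg2, an exporter of porphyrins, at 0.42 ± 0.14 (SE, edgeR adjusted p = 0.194). Of 10 mitochondrial genes (median 0.00), Isca1, of iron-sulfur cluster assembly, stood at -0.30 ± 0.13 (SE, edgeR adjusted p = 0.290). Of 14 tested pathway genes in the lowest GC quintile, control replicate 3 was the lowest library in 8, beside 1787 of all 2604 tested genes of that quintile. Bmpr2, Ireb2 and Acvr2a, named after their values were seen, deviated by -2.5 to -1.88 (log2) there.

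**Figure D5:**
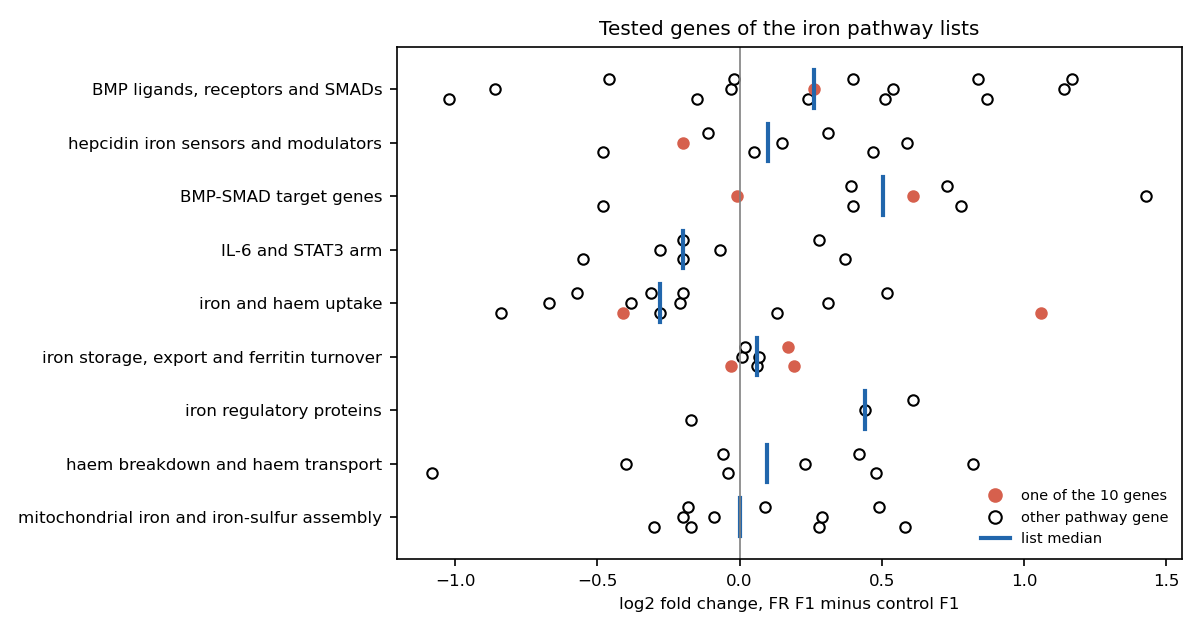
Log2 fold change of FR F1 against control F1 (x axis) for each tested gene of the 9 pathway lists (rows), with members in red, other genes as open circles and the list median as a blue line. The target list had the highest median (0.51) and the uptake list the lowest (-0.28), with Tfrc at the upper end of the latter.

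Genes with a pattern like that of Hamp were sought by the root mean square difference of centred log2 CPM over the 6 libraries. The 5 closest were Erg28 at 0.042, Cnot4 at 0.048, Supt7l at 0.052, Sbno1 at 0.057 and Smad1 at 0.058, where the spread of Hamp itself was 0.135. For Id1, with a spread of 0.703, the closest were Cd300lb at 0.252, Tagap1 at 0.253, Cyp2b10 at 0.261, Laptm5 at 0.271 and Pou2f2 at 0.274. The search covered tested genes above a floor of mean CPM, with clone names, gene models and mitochondrial genes left out. With many genes and 6 libraries, some may lie this close to any pattern, which was not tested. The values describe likeness in these libraries only.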

How the data were processed

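Per the labels' protocols, flash-frozen livers were extracted with Trizol and polyA RNA was made into libraries with a TruSeq kit named there as one for DNA. The deposited table holds whole-number counts per Ensembl gene that the authors made; mm10, HTSeq, STAR, DESeq2 and StringTie appear in the submitters' processing notes. The sources used here do not state their roles, the annotation, the strand setting or any removal of duplicates. Of 53715 gene IDs, 53620 matched a GENCODE M21 symbol. Genes passing filterByExpr (minimum count 10, minimum total 15) entered edgeR 4.0.16 under R 4.3.3 (TMM factors, quasi-likelihood, Benjamini-Hochberg threshold 0.05), a procedure tested on simulated data. DESeq2 1.42.0 and limma-voom 3.58.1 were alternatives, and exact permutation tests over the 6 libraries were run for ratios and single genes. Log2 CPM used a prior count of 2, and CPM values are TMM-normalised. Levels per kilobase and GC content used the longest transcript, and GC offsets (20 bins) were chosen after seeing the data.

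The members and lists were chosen with earlier results of these data known. Named genes are the 10 members, any pathway gene past the threshold, the 2 smallest p-values of each pathway list, the 3 most counted genes of each marker list and the 5 genes closest to Hamp and to Id1; ferritin pseudogenes are given as counts. A gene that this rule names in the mitochondrial list is not reported here. Promoters come from RefSeq (GRCm38.p6). No 2 libraries of the same group agreed within counting noise.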

Additional observations from a re-analysis of the deposited data

How the results depend on the processing

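Depth limited the genes with few counts: Bmp6 had 98 counts in all. The number of genes called was 109, and became 457 with DESeq2, 1251 with no filter on low counts, 322 at an adjusted p of 0.10, 278 with GC offsets and 7 to 651 when 1 library was left out in turn. With a replicate block it was 21. Same-numbered libraries did not deviate together (correlations -0.017, 0.108 and 0.153), so the numbers were not taken to pair them, and the block called 0 members. The number of members called was 0 and became 1 (Tfrc) with no filter. The number of pathway genes called was 0, and became 3 with DESeq2, 14 with no filter, 2 with GC offsets and 0 to 1 when 1 library was left out. The sign turned for Hamp (-0.01) with no factors (0.01), a minimum count of 30 (0.02), counts expanded toward the ceiling (0.06), paralog counts summed (0.15) and GC offsets (0.06), its range without 1 library was -0.11 to 0.08, and with DESeq2, RLE or upper quartile factors it rounded to 0.00. It turned for Hamp2 (0.67) with limma-voom (-0.24), with a range of -1.69 to 1.27 without 1 library. It turned for Slc40a1 with GC offsets (-0.09), and for Ftl1 with expanded counts (0.03) and GC offsets (0.06), with a range of -0.11 to 0.04 without 1 library. The cause was not tested. Bmp6, Id1, Tfr2, Tfrc, Trf and Fth1 kept their sign in all alternatives run. Hamp2 had no value of its own where paralog counts were summed or genes near the ceiling were left out.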
